A study of Mus musculus with 6 samples.

Results

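Integrins and their partners are the molecules with which leukocytes hold on to vessel walls, to matrix and to each other. This account describes chromatin accessibility around 38 such genes in monocytic myeloid-derived suppressor cells (M-MDSCs), which are immature monocyte-like cells that accumulate in tumors and restrain immune responses. The 38 genes were a fixed list of names, with no threshold on a measured value but drawn up with earlier results of these data known: 26 integrin subunit genes and 12 other adhesion genes, of 21951 protein-coding genes in all. A peak was assigned to a gene when it overlapped the gene body or the 20 kb on either side, and a peak near several genes was counted once in totals. By this rule 86 of the 11800 listed peaks lay near these genes, and 22 of the 38 genes had at least 1.

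The cells were CD11b+Ly-6ChiLy-6G- and were sorted by flow cytometry from Hepa 1-6 tumors, which grow from a mouse hepatoma line implanted in the liver of C57BL/6J mice. The mice were wild-type females, 6 to 8 weeks old, and were given vehicle, MS-275 or CXD101 at 5 mg/kg by intraperitoneal injection every day for 10 days. MS-275 and CXD101 inhibit HDAC1-3, the class I histone deacetylases that remove acetyl groups from histones. There were 2 ATAC-seq libraries in each group of mice, 6 in all. ATAC-seq marks open DNA by the sites where a transposase can insert adapters.

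The authors pooled the 2 libraries of a group and called peaks in 1 group against another, so each list holds sites with more signal in the group named first. Sites higher with an inhibitor than with vehicle are called gained here, and sites higher with vehicle are called lost. The lists held 8480 MS-275 gained, 691 MS-275 lost, 284 CXD101 gained and 693 CXD101 lost peaks, and a direct comparison of the inhibitors held 1650 peaks higher with MS-275 and 2 higher with CXD101. The pooled MS-275 and CXD101 groups had 1.144 and 1.137 times the depth of vehicle, and the peak caller brought each pair to a common depth. The values are of pooled libraries, so the differences below have no replicate check. Each p-value is the peak caller's test on the reads of pooled libraries and compares those libraries, not the treatments. The cell sort could not be checked against marker genes, because the lists hold differences between groups and not levels in each.

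Integrins are pairs of an alpha and a beta chain. The beta2 pairs are the leukocyte integrins: alphaL, alphaM, alphaX and alphaD (Itgal, Itgam, Itgax and Itgad) each join beta2 (Itgb2), and the alphaM chain is CD11b, the antigen used in the sort. Other pairs bind collagen, laminin, RGD-bearing matrix proteins such as fibronectin and vitronectin, or immunoglobulin-like ligands on other cells such as VCAM-1 and the ICAMs. PSGL-1 (Selplg) carries the first, rolling contact with selectins, PECAM-1 (Pecam1) serves passage between endothelial cells and is itself found on leukocytes, CD47 is a partner of integrins and the signal that keeps phagocytes from engulfing a cell, and the tetraspanins CD9, CD81 and CD82 arrange integrins in the membrane.

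The sequences below carry the results. Each is the 201 bases centred on the summit, the base with the most signal, in mm10 on the plus strand. They are the strongest member peaks of each list, the start-site peak of Itgb2 and the Itgax promoter site that was lost with both inhibitors. Capitals mark matches to motifs searched on both strands, namely AP-1 (TGACTCA), the GC box (GGGCGG) and the core of the interferon-response element (AAANNGAAA), and a match is a description of letters and not a bound site.
Selplg window, MS-275 gained and higher than CXD101, chr5:113804414-113804614: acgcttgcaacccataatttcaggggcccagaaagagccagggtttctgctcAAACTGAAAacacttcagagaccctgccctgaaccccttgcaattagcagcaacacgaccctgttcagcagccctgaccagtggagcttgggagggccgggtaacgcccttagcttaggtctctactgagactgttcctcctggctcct
Cd47, MS-275 gained, chr16:49800176-49800376: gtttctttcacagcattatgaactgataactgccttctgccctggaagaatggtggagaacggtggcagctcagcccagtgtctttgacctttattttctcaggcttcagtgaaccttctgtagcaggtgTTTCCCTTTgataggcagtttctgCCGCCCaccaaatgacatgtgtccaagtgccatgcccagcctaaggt
Pecam1, MS-275 gained, chr11:106701519-106701719: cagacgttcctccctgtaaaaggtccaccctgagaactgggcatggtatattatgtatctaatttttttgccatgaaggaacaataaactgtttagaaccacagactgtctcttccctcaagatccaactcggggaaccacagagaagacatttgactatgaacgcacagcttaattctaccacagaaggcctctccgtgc
Itgb2 start site, MS-275 gained, chr10:77530046-77530246: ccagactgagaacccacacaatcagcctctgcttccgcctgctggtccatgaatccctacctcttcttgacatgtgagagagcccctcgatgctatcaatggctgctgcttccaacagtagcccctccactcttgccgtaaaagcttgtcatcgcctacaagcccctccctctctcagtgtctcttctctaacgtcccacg
Itgax promoter, lost with both, chr7:128129170-128129370: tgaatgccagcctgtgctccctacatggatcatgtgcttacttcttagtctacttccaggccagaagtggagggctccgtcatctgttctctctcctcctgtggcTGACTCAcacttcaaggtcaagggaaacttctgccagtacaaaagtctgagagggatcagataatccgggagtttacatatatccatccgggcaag
Itga3 promoter, lost with both, chr11:95078328-95078528: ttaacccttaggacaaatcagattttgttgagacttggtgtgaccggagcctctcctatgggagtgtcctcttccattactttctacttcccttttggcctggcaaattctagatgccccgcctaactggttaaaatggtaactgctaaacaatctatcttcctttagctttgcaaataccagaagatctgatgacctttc
Vcam1 intron, gained with both, chr3:116124119-116124319: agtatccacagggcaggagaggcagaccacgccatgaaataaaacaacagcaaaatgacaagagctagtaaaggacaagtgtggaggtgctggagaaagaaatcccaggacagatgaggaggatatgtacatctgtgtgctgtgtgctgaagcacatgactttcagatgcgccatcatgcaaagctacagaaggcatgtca
Itgae intron, lost with CXD101, chr11:73131358-73131558: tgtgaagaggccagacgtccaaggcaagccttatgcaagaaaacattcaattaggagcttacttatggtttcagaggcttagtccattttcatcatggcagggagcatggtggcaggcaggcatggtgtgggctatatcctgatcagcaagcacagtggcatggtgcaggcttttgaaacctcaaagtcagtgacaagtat

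MS-275 gave most of the gain at these genes. Of the 38 genes, 19 (50%) had an MS-275 gained peak, where 18.6% of all protein-coding genes did, and the 62 peaks were 0.731% of the list. Among the integrin subunit genes 12 of 26 (46.2%) had a gained peak, and among the other adhesion genes 7 of 12 (58.3%). With CXD101 a single gene of the 38 had a gained peak (2.63%, against 0.961% of all genes), namely Vcam1. The adhesion genes are long: their median length was 45.8 kb, against 17.4 kb for all protein-coding genes, and a longer window can hold more peaks. Per megabase of window, counting overlapping windows once, there were 16.1 MS-275 gained peaks near the adhesion genes and 4.51 near all genes, and without Cd47 and Pecam1 there were 8.97. In the narrower region of the 5 kb upstream of a gene's own start sites, 7 of the 38 genes (18.4%) had a gained peak, where 5.91% of all genes did: Cd47, Cd81, Cd9, Itgam, Itgb2, Itgb3 and Vcam1. A gene with several annotated starts has more such regions. At Cd81, Cd9 and Vcam1 the peak lay in an intron, upstream of an internal start. At Cd47 it lay upstream of a GENCODE start outside the RefSeq gene body.

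Loss of signal was rarer and fell in the windows of integrin alpha chains and Itgb7. With MS-275, 3 genes of 38 (7.89%) had a lost peak, against 2.90% of all genes. With CXD101, 5 genes (13.2%) had a lost peak, against 3.62% of all genes. These were Itga3, Itgam and Itgax in both lists, Itgae and Itgb7 with CXD101 alone, and Itgam only through a peak that it shares with Itgax. The lost peak in the Itgb7 window lay 302 bp upstream of a start of the neighbouring gene Rarg and 14.9 kb from the Itgb7 start. Both lost lists rest on the same 2 vehicle libraries and are not independent of each other. In the direct comparison 9 genes (23.7%) had a peak higher with MS-275, against 6.62% of all genes. None of the 38 genes had a peak higher with CXD101 than with MS-275, a list of only 2 peaks near 0.0137% of all genes.

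**Figure D1:**
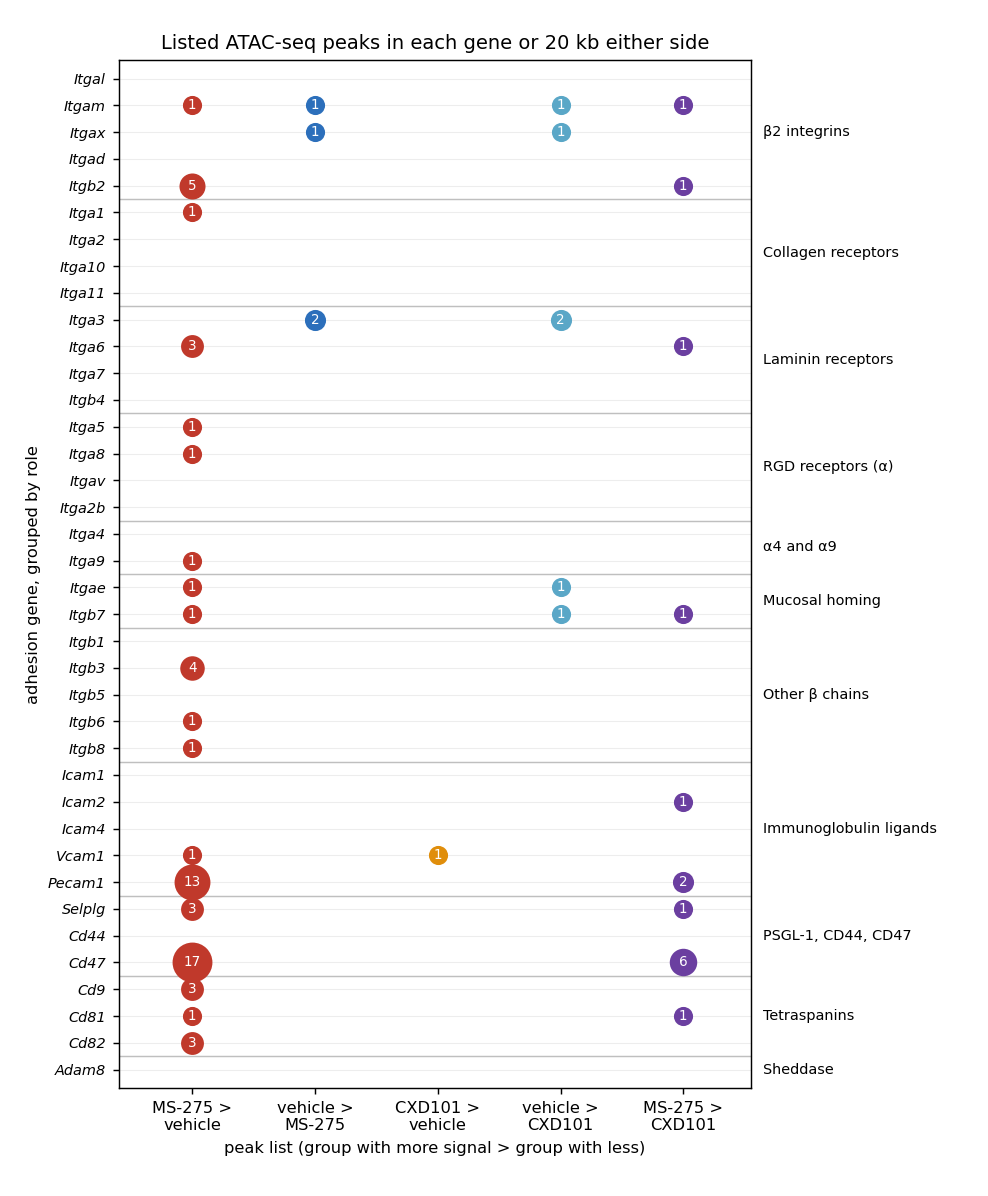
Number of listed ATAC-seq peaks (printed in each circle, whose size also grows with the number) in the body of each of the 38 adhesion genes or 20 kb either side, by gene (rows, grouped by role) and list (columns, the group with more signal named first). The MS-275 gained column is the fullest, with 17 peaks at Cd47 and 13 at Pecam1, and the peak shared by Itgam and Itgax stands in both of their rows. The list higher with CXD101 than with MS-275 had no peak here and is not drawn.

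The levels behind a peak are given as tags, the sequenced fragments piled up at the summit, scaled to the depth of the vehicle group. The fold enrichment is the peak caller's ratio of the higher to the lower group with 1 added to each. Tags of the higher group carry an exact 95% Poisson interval, which covers counting error only, since fragments copied by PCR are not independent. The level of the lower group is an upper estimate, the highest of several local averages, and cannot fall below a genome-wide background of 5.84 tags. Over the 62 MS-275 gained peaks near the adhesion genes the median was 50.7 tags with MS-275 against a vehicle level of 13.9, and over the whole list 49.8 against 15.8. The median fold was 3.01 near the adhesion genes, with a range of 1.80 to 6.09, and 2.88 in the whole list. Of the 62 peaks, 2, at Itga8 and Itgb8, stood on a vehicle level at the background.

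**Figure D2:**
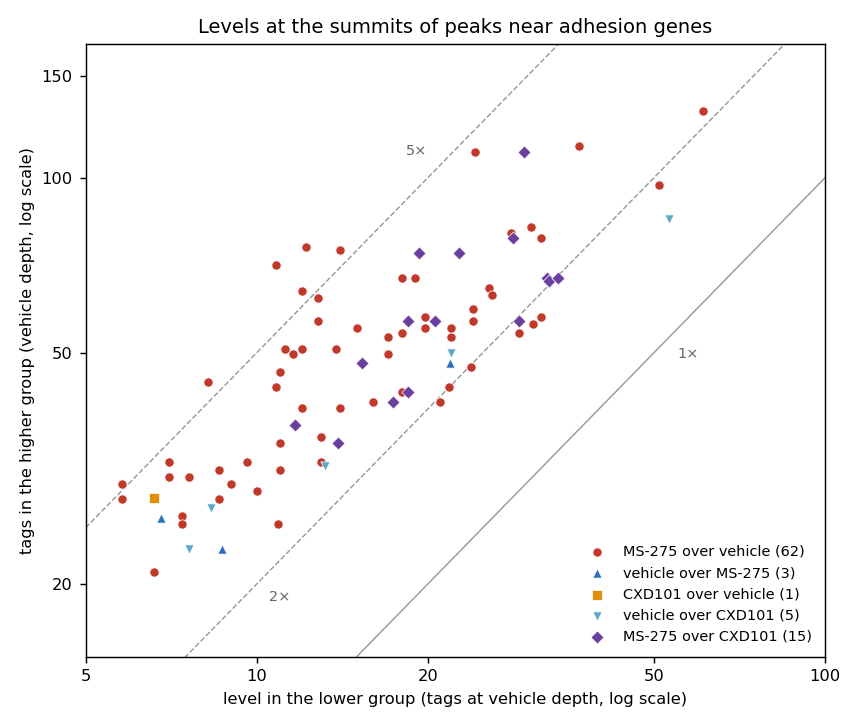
Tags in the group with more signal (vertical axis) against the level in the group with less (horizontal axis), both at vehicle depth on log scales, for each listed peak near an adhesion gene, by list. The lines mark ratios of 1, 2 and 5, and the MS-275 gained peaks span vehicle levels from 5.8 to 61.0 tags.

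Among the beta2 integrins, the common beta chain gained and the alpha chains differed. Itgb2 had 5 MS-275 gained peaks in 3 intervals. The strongest, at chr10:77529995-77530209, had its summit 106 bp upstream of the Itgb2 start and held 80.4 tags (64.8 to 98.7) with MS-275 against 28.0 with vehicle, a fold of 2.81 (−log10 p 15.5). An intronic interval 7.5 kb into the gene held summits with folds of 2.42 and 1.84, and an interval about 7 kb upstream held summits with folds of 2.63 and 1.91. The intronic site was also higher with MS-275 than with CXD101 (fold 1.96): near the stronger summit the levels were 24.0 tags with vehicle, 33.9 with CXD101 and 59.5 with MS-275. Tags and folds show a gain at the start site, upstream and within the gene, and in neither CXD101 list was there a peak.

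Itgam, which encodes CD11b, had a single gained peak, upstream of the gene at chr7:128058887-128059169. Its summit lay 3585 bp upstream of the start and held 64.7 tags (50.8 to 81.2) with MS-275 against 25.6 with vehicle (fold 2.47, −log10 p 10.3). In the direct comparison the same site had 66.5 tags with MS-275 and 32.7 with CXD101 (fold 2). All 3 groups were selected for CD11b protein by the sort.

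The Itgax promoter had a lost peak with each inhibitor. Itgax encodes CD11c, the chain of dendritic cells and of tissue macrophages. With MS-275 the lost peak at chr7:128129118-128129383 had its summit 277 bp upstream of the start, with 48.0 tags (35.4 to 63.6) in the vehicle group and 21.9 with MS-275 (fold 2.14, −log10 p 6.39). In the CXD101 lost list the summit lay 264 bp upstream, with 50.0 vehicle tags (37.1 to 65.9) against 22 (fold 2.22, −log10 p 7.06). The levels with the 2 inhibitors, 21.9 and 22 tags, were set against the same vehicle libraries. At a q-value of 0.001 in place of 0.05 the CXD101 lost peak is still listed and the MS-275 lost peak is not. The site lies 10.8 kb beyond the 3′ end of Itgam, which is why it is also counted in the Itgam window. In the printed Itgax window the AP-1 match begins 5 bases from the MS-275 lost summit, and AP-1 matches stood within 100 bp of 18.1% of all MS-275 lost summits and of 2.79% of all MS-275 gained summits. Itgal and Itgad had no listed peak.

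**Figure D3:**
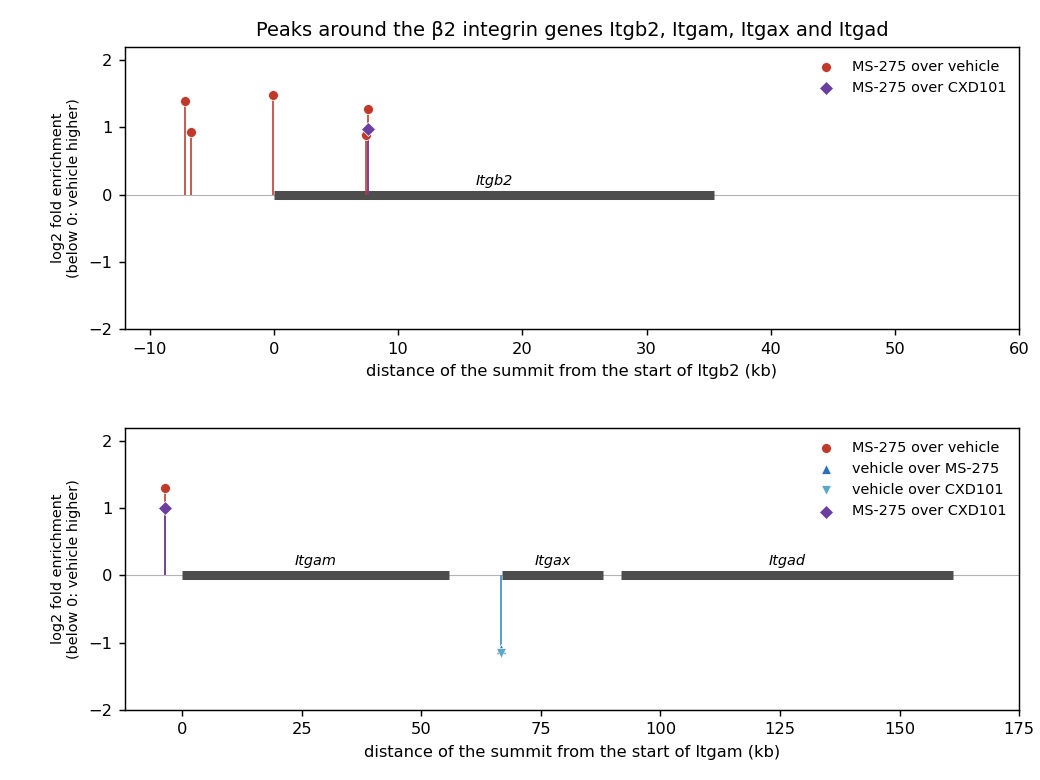
Listed peaks around Itgb2 (top) and around Itgam, Itgax and Itgad (bottom), by distance of the summit from the start of Itgb2 or Itgam in kb. The vertical axis is log2 fold enrichment, drawn downward where vehicle was the higher group. The grey bars are gene bodies. The Itgb2 peaks point upward, and at the Itgax start the lost peaks of both inhibitors overlap, pointing downward.

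The laminin receptors also held a gain and a loss. Itga3, the alpha3 chain, had 2 lost peaks with each inhibitor in the same stretch of its promoter. The strongest MS-275 lost peak, at chr11:95078042-95078588, had its summit 1627 bp upstream of the start, with 26 tags (17.0 to 38.1) with vehicle and 6.8 with MS-275 (fold 3.45, −log10 p 8.37). With CXD101 a summit 1662 bp upstream had 23.0 tags (14.6 to 34.5) against 7.6 (fold 2.80). The second summits lay 1350 and 1413 bp upstream, with folds of 2.46 and 2.33. Signal with the inhibitors at the strongest site was thus near the background level of 5.84 tags. The low counts give wide intervals, and at a q-value of 0.001 in place of 0.05 the strongest MS-275 lost peak is still listed but neither CXD101 lost peak at Itga3 is.

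Itga6, the alpha6 chain that pairs with beta1 or beta4 to bind laminin, had 3 MS-275 gained peaks. A summit 6.0 kb into its intron had 55.1 tags (42.3 to 70.5) with MS-275 and 22 with vehicle (fold 2.44), and a summit 230 bp inside a transcript start had 47.2 against 23.8 (fold 1.94). The third, with the highest fold (3.95, 30.6 tags against 7.0), lay 9.0 kb beyond the 3′ end and nearer to the start of Pdk1. In the direct comparison a summit 168 bp from the intronic one had 42.8 tags with MS-275 and 18.5 with CXD101 (fold 2.26). Itga7 and Itgb4 had no listed peak.

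Of the 4 collagen receptor genes 1 had an MS-275 gained peak, where 18.6% of all genes did. Itga1 had 1 gained peak, in an intron 24.0 kb from its start, with 49.8 tags (37.7 to 64.6) against 11.6 (fold 4.03, −log10 p 16.2). The nearest annotated start to that summit is of Pelo, a gene inside the Itga1 locus, at 12.5 kb. Itga2, Itga10 and Itga11 had none.

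RGD receptors and the alpha4 and alpha9 chains gave 1 peak each where they gave any, and most lay closer to a neighbouring gene. Itga8 had an intronic gain from the background (28.0 tags, interval 19.1 to 39.5, against 5.8, fold 4.24). The peak in the Itga5 window lay 10.2 kb beyond the 3′ end of this fibronectin receptor gene and 257 bp inside the start of Zfp385a (82.2 tags against 30.4, fold 2.65). The Itga9 peak lay 12.4 kb beyond the 3′ end, with Ctdspl the nearest start (57.7 tags against 19.8, fold 2.82). Itgav, Itga2b and Itga4, the last encoding the alpha chain of the VCAM-1 receptor VLA-4, had no listed peak.

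Itgae and Itgb7 encode the alphaE and beta7 chains, the pair that holds lymphocytes and some dendritic cells in epithelium, and both had peaks in either direction. In Itgae an intronic site 17993 bp from the start was gained with MS-275 (53.3 tags, interval 40.8 to 68.5, against 17.0, fold 3.02). A separate intronic site 40.9 kb from the start was lost with CXD101, from 27.0 tags (17.8 to 39.3) to 8.3 (fold 3.02, −log10 p 7.25), the strongest lost peak of the CXD101 list near these genes. In the Itgb7 window the site 1976 bp upstream of the start was higher with MS-275 than with CXD101 (37.6 tags, interval 27.2 to 50.6, against 11.7, fold 3.06), but was in neither list against vehicle. The other Itgb7 peaks belonged by position to Rarg, the retinoic acid receptor gamma gene: a gained MS-275 peak 1350 bp upstream of a Rarg start (fold 1.96) and a lost CXD101 peak 302 bp upstream (85.0 tags against 53.1, fold 1.59).

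Among the other beta chains, Itgb3 had the most, 4 MS-275 gained peaks. Beta3 joins alphaV in the vitronectin receptor and alphaIIb on platelets. The strongest, at chr11:104647383-104647596 in an intron, had 113.7 tags (95 to 135) with MS-275 and 37.0 with vehicle (fold 3.02, −log10 p 23.5). A further peak lay at the start itself, with the summit 18 bp upstream and 56.8 tags (43.9 to 72.4) against 24.0 (fold 2.31), and the others had folds of 3 and 1.80. The levels of the last of these, 327 bp inside the start, had a second solution, so its tags are not given. Itgb6 had 1 gained peak 14.7 kb upstream (28.9 tags against 10.0, fold 2.71), and Itgb8 had 1 at 19.9 kb beyond its 3′ end (29.7 tags, interval 20.6 to 41.5, against 5.8, fold 4.49). Itgb1 and Itgb5 had no listed peak, so the beta chain shared by the most integrins was in no list.

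Vcam1 was the only member gained with both inhibitors. VCAM-1 is an endothelial and stromal ligand of alpha4 integrins, also known on some macrophages. An intronic site at chr3:116124079-116124333, 3469 bp upstream of one of its transcript starts, had 32.4 tags (22.8 to 44.6) with MS-275 against 7.0 with vehicle (fold 4.17, −log10 p 12.0). In the CXD101 list the peak at chr3:116124132-116124332 had 28.1 tags (19.2 to 39.7) against 6.6 (fold 3.83, −log10 p 9.94). The intervals of the tags with the 2 inhibitors overlap, and the site was not in the direct list. Both gained lists rest on the same 2 vehicle libraries and are not independent. The vehicle levels of 7.0 and 6.6 tags stood near the background of 5.84, and the CXD101 summit lay in a base masked as a repeat. Icam2 had no peak against vehicle. Its single peak, higher with MS-275 than with CXD101 (41.1 tags against 17.4, fold 2.29), lay inside the neighbouring gene Prr29, 832 bp from a start of it. Icam1 and Icam4 had none.

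Pecam1 had 13 MS-275 gained peaks in 11 intervals, a number that 0.0957% of protein-coding genes reached. A run of 8 peaks spanned 5.1 kb of its introns, chr11:106700174-106705237, with folds from 2.21 to 6.09 on vehicle levels of 8.2 to 15 tags. The strongest, at chr11:106701270-106701735, had 70.8 tags (56.2 to 88.0) with MS-275 and 10.8 with vehicle (fold 6.09, −log10 p 33.2), place 48 of the 8480 peaks by p-value and place 32 by fold. An interval some way downstream of the run had the next strongest summit (63.8 tags against 12.0, fold 4.99). None of the 8 peaks of the run overlapped a peak of the direct list. A site at 89.9 kb from the 5′ end did, with 26 tags with vehicle, 29.0 with CXD101 and 63.0 with MS-275. A further direct peak, 11.9 kb upstream and inside the neighbouring gene Milr1 (fold 2.73), lay beside a gained peak without overlapping it.

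Cd47 had 17 gained peaks in 12 intervals, place 7 among the 21951 genes by number of gained peaks. Of these, 14 lay in a run of 9.4 kb, chr16:49792232-49801656, with folds from 2.36 to 5.84 on vehicle levels of 7.4 to 22 tags. The strongest, at chr16:49799755-49800418, had 76.1 tags (60.9 to 93.8) with MS-275 and 12.2 with vehicle (fold 5.84, −log10 p 34.7). The next, at chr16:49796177-49797038, had 75.2 tags (60.1 to 92.9) against 14.0 (fold 5.08, −log10 p 30.2). Both summits also stood in the direct list, where the CXD101 levels were 22.7 and 19.3 tags. The run surrounds a start that the GENCODE annotation gives to Cd47, at position 49800533. The other GENCODE starts begin at position 49855366, and the RefSeq gene body begins 50.8 kb downstream of that first start, so in RefSeq windows only 3 gained peaks remain at Cd47. Of these, a peak 370 bp inside a downstream start had 97.1 tags (79.8 to 117) against 51.0 (fold 1.89), a site 7.8 kb upstream of the downstream starts had 21 tags (13.4 to 31.2) against 6.6 (fold 2.89), and a site 18.6 kb upstream of them had 130.3 against 61.0 (fold 2.12). Pecam1 was less affected by the gene model, with 12 gained peaks in RefSeq windows.

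**Figure D4:**
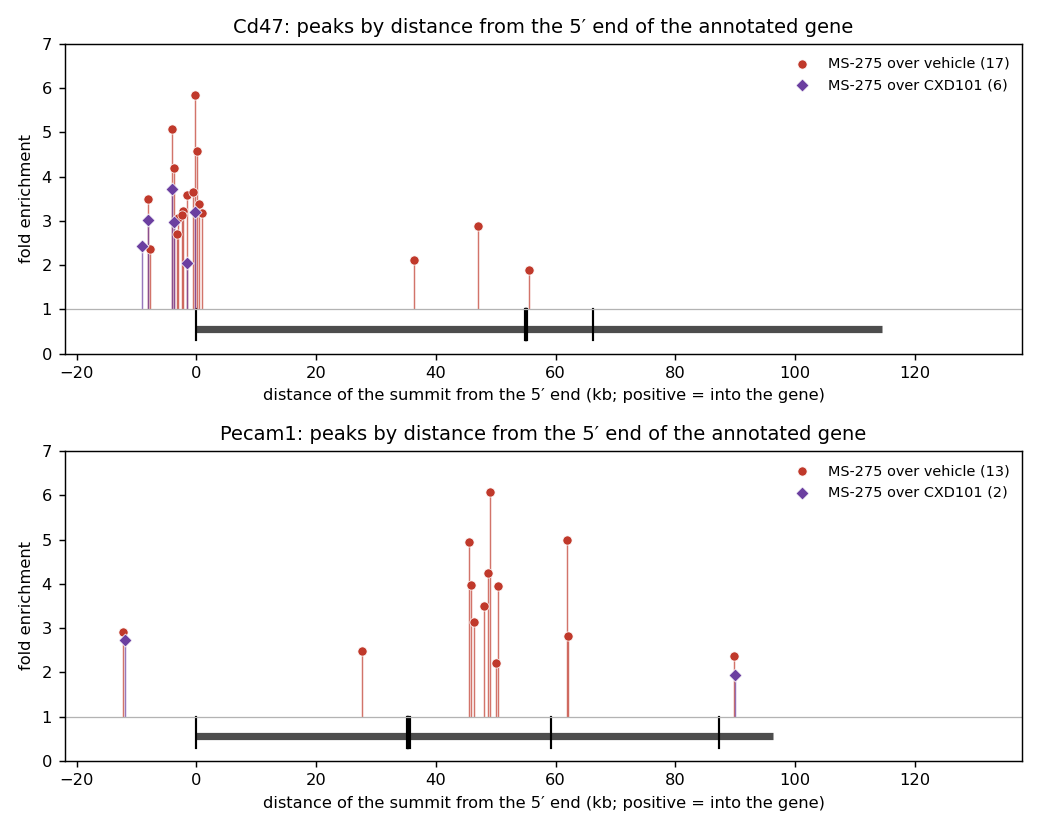
Fold enrichment of the listed peaks (vertical axis) at Cd47 (top) and Pecam1 (bottom) by distance of the summit in kb from the 5′ end of the GENCODE gene, with positive distances into the gene. The grey bar is the gene body and the black ticks are annotated transcript starts. At Cd47 the run of 14 gained peaks surrounds the first start, away from the other starts, and at Pecam1 the run of 8 lies inside the gene.

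The window of Selplg, the gene of PSGL-1, held the strongest of the 86 peaks by p-value. At chr5:113804400-113804659 there were 111.0 tags (92.6 to 132) with MS-275 and 24.2 with vehicle (fold 4.45, −log10 p 37.7), place 25 of 8480. In the direct list it was place 1 of 1650 by p-value, with 111.0 tags against 29.5 with CXD101 (fold 3.68, −log10 p 34.1). By position the site is not at Selplg itself: it lies 14.0 kb beyond the 3′ end, and its nearest start is of Tmem119, a gene known as a microglia marker, at 3998 bp. A second gained peak of the window lay 95 bp upstream of the Tmem119 start (67.3 tags, interval 53.1 to 84.1, against 19.0, fold 3.42). The third lay in a Selplg exon, 1622 bp inside a start (55.1 tags, interval 42.3 to 70.5, against 19.8, fold 2.70). Cd44, the hyaluronan receptor gene, had no listed peak, nor had Adam8, which encodes a metalloproteinase that sheds adhesion molecules.

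Each of the 3 tetraspanin genes had an MS-275 gained peak, where 18.6% of all genes did. Cd9 had 3 peaks, of which the strongest lay in an intron, 2746 bp upstream of a transcript start, with 78.7 tags (63.3 to 96.7) against 31.6 (fold 2.44, −log10 p 12.0), and a pair some 16 kb upstream had folds of 3.02 and 2.38. Cd82 had an intronic peak with 43.7 tags (32.4 to 57.6) against 10.8 (fold 3.79, −log10 p 13.5) and others with folds of 2.75 and 1.80. Cd81 had 1 peak, 181 bp upstream of a start, with 42.8 tags (31.7 to 56.6) against 18 (fold 2.31), and a different site 14.2 kb upstream was higher with MS-275 than with CXD101 (56.8 tags against 20.6, fold 2.69). No tetraspanin gene had a lost peak or a CXD101 gained peak, but 3 genes are too few for that absence to set them apart. Peaks lost under MS-275 stood near just 2.90% of all genes, and those lost under CXD101 near 3.62%. Gain under CXD101 reached only 0.961% of all genes.

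The direct list gives CXD101 levels that can be set beside the vehicle levels. Of its 15 peaks near adhesion genes, 10 overlapped an MS-275 gained peak and 5 did not. Over the whole direct list 1191 of 1650 peaks (72.2%) did, so the overlap is not particular to these genes. Seen from the other list, 14 of the 62 gained peaks (22.6%) overlapped a direct peak. Both lists use the same MS-275 libraries and are not independent. At the 10 sites where summits of both lists lay within 250 bp, MS-275 is the highest group because the lists chose the sites so. Vehicle and CXD101 are low for the same reason, each through its own list. CXD101 stood above vehicle at 9 of them. The exception was the Itga6 intron, with 18.5 tags in the CXD101 group and 22 in the vehicle group at summits 168 bp apart. At the Cd47 sites the CXD101 and vehicle levels were 15.3 against 13.8, 19.3 against 14.0, 18.5 against 12.8, 32.5 against 18 and 22.7 against 12.2 tags. Each level is an upper estimate from another fit, so these differences were not tested, and none of these sites was in the CXD101 gained list.

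**Figure D5:**
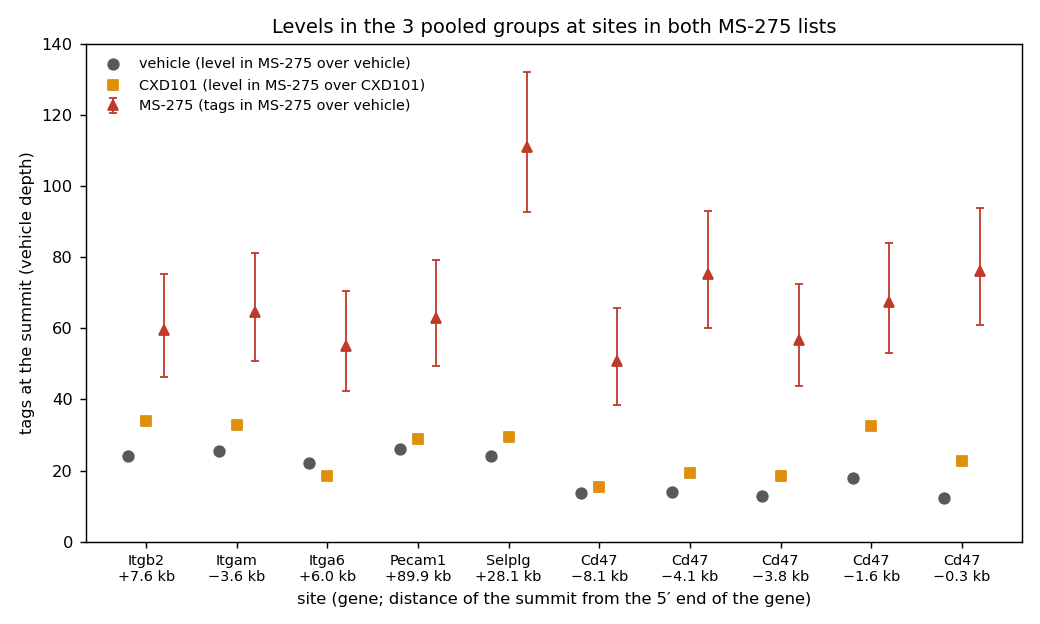
Tags at the summit, at vehicle depth, in the vehicle (circles), CXD101 (squares) and MS-275 (triangles) groups, at the 10 sites near adhesion genes that were in both MS-275 over vehicle and MS-275 over CXD101. Bars are exact 95% Poisson intervals of the MS-275 tags. MS-275 lies highest because the sites were chosen so, and CXD101 lies above vehicle at 9 of the 10 sites, all but the Itga6 site.

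The position of the peaks is given beside that of the whole list, with no test. Of the 62 MS-275 gained peaks 22 (35.5%) overlapped the 5 kb upstream of any annotated start, against 31.9% of the list, and 30 (48.4%) were otherwise intronic, against 35.9%. Peaks outside genes made 12.9%, against 27.1%, a lower share that the choice of windows around genes fixes in part. Cd47 and Pecam1 held 30 of the 62. For 54 of the 62 the nearest start was of the member itself, a share that the choice of windows also fixes in part. The other 8 were nearer to another gene, and for Itga1, Itga5, Itga9 and Itgb7 that held for every gained peak. Summits in bases masked as repeats made 25.8% near the adhesion genes and 17.0% in the list.

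The motif matches near adhesion genes were few. AP-1 matches lay within 100 bp of 3 of the 62 gained summits (4.84%, against 2.79% of the list). PU.1 (GAGGAAGT) matched at 2 (3.23%, against 1.83%). All of these AP-1 and PU.1 matches were at Cd47 and Pecam1. GC boxes lay at 9 (14.5%, against 10.6%) and the interferon-response core at 6 (9.68%, against 8.31%). Within 50 bp the shares were 6.45% for the GC box (against 5.33% of the list) and 0 for PU.1 (against 0.601%). For AP-1 the share within 50 bp was 4.84%, against 1.39%. The NF-kB letters GGGNNTTTC were found at 2 (3.23%, against 2.83%). RUNX (TGTGGTTT) and C/EBP (TTGCGCAA) matched at 0 of 62, against 1.66% and 0.0825% of the list. If the peaks were independent, 0 of 62 would allow a share of up to 4.84%. They are not, since 30 of the 62 lie at Cd47 and Pecam1. Beside the strongest Cd47 summit the interferon-response core begins 30 bases away and a GC box 54 bases away, and in the Selplg window the interferon-response core begins 48 bases away.

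Genes that act with integrins were described from a further list of 54. In it 21 genes (38.9%, against 18.6% of all genes) had an MS-275 gained peak, 4 an MS-275 lost peak (7.41%, against 2.90%), 3 a CXD101 gained peak (5.56%, against 0.961%) and 6 a CXD101 lost peak (11.1%, against 3.62%), and 12 had a peak higher with MS-275 than with CXD101 (22.2%, against 6.62%). Of 32 genes of integrin activation and signalling, 9 gained with MS-275 (28.1%, against 18.6% of all genes). Ptk2b, the kinase Pyk2, had 4 gained peaks up to a fold of 4.11 (91.8 tags against 21.6). Parvb and Parvg, neighbouring parvin genes of the complex that ties integrins to actin, shared 9. Among these 32 genes, which held every lost gene of the 54, 4 had an MS-275 lost peak (12.5%, against 2.90%) and 6 a CXD101 lost peak (18.8%, against 3.62%). Parvb was one of them, with 60 tags with vehicle against 14.5 with MS-275 (fold 3.93) and 60 against 18.1 with CXD101 (fold 3.19). Syk, the kinase that acts below beta2 integrins in myeloid cells, had a lost peak with MS-275 (70 tags with vehicle against 16.3, fold 4.11) and with CXD101 (70 against 17.8, fold 3.78). Actn4, an actinin that links integrins to actin, had lost peaks with MS-275 (53.0 against 13.1, fold 3.83) and with CXD101 (51.0 against 13.5, fold 3.58).

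Of 14 other adhesion and transmigration genes, 7 (50%, against 18.6% of all genes) gained with MS-275, among them Cd34, Cdh5, Esam, Jam2 and Selp. None had a lost peak, in lists near 2.90% and 3.62% of all genes. The peak at Selp, the gene of P-selectin, had 53.3 tags with MS-275 against 10.0 with vehicle (fold 4.94). Of 8 genes of extracellular ligands, 5 (62.5%) gained with MS-275, namely Fn1, Lama5, Spp1, Thbs1 and Vwf. Vwf, von Willebrand factor, had folds up to 4.88, and Thbs1, thrombospondin-1 and a ligand of CD47, had 7 gained peaks up to a fold of 2.52.

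Marker genes of monocytes, which the sorted cells resemble, and of other cell types that a sort could carry over were counted in the same windows. Their part in these results was not tested. The share to read them against is 18.6% of all genes for the MS-275 gained list. The sort had gated out Ly-6G-bearing cells in every group. All 6 neutrophil genes had MS-275 gained peaks (21 peaks, 10 of them at Mpo). Monocyte genes had them at 4 of 7, platelet genes at 2 of 4 (Gp9 and Pf4), endothelial genes at 2 of 5 (Cdh5 and Vwf), fibroblast genes at 1 of 4, NK cell genes at 1 of 3, and T cell genes at 3 of 5 through a single peak that Cd3d, Cd3e and Cd3g share. B cell and hepatocyte genes had 0 of 4 each. In the MS-275 lost list, near 2.90% of all genes, the marker genes were Cx3cr1 of the monocyte genes and Cd3g. In the CXD101 lost list, near 3.62%, they were Cx3cr1, Cd3g and the endothelial gene Kdr. Cx3cr1 and Cd3g also had MS-275 gained peaks. Higher with MS-275 than with CXD101, a list near 6.62% of all genes, were peaks at Lyz2, Ly6g, Vwf and Pdgfra. An accessible site near a gene in a pooled sample does not tell whether more cells were open there or each cell was more open, and these cannot be told apart here.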

How the data were processed

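The data were 6 peak lists, from 3 groups of 2 libraries. The authors aligned reads with Bowtie2 to mm10 and compared pooled groups with MACS2 2.2.7.1, per the labels and the methods without a model and with a shift of 0. The deposited fold enrichment is a linear ratio of treated to control pileup after scaling, and the deposited −log10 p-value and −log10 q-value come from a Poisson test. No peak had a q-value above 0.05. How far a shift of 0 moves summits from the transposase cut was not measured. Reads per library were not used here.

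Tags and control levels were solved from fold and p-value with a pseudocount of 1. All 11800 peaks were solved, 31 of them with more than 1 solution, and the solver was tested on simulated peaks. Overlap meant at least 1 base. Genes came from GENCODE M21, a promoter was the 5 kb upstream of a start, and sequence and repeat masking came from the RefSeq copy of the mm10 assembly (Python 3, pandas, scipy and pysam). Peaks are listed one by one, so 1 interval can hold several. Every member with a peak is named, the strongest peak of each list in full, and the others by range. The members, gene lists and rules were chosen with earlier results of these data known. No test over genes or peaks was made, since neither are replicates. Percentages of genes are set beside the same share over all protein-coding genes. Alternatives were other windows, stricter lists, other gene models and leaving out Cd47 and Pecam1. Some genes of the wider lists are counted but not reported here by name.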

Additional observations from a re-analysis of the deposited data

Results flagged for a closer look

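The direct comparison of the inhibitors, a test by the peak caller of the difference itself on pooled libraries, held 15 peaks near adhesion genes that were higher with MS-275 than with CXD101, at 9 genes. The strongest at each gene had a fold of 3.72 at Cd47, 3.68 in the Selplg window, 3.06 at Itgb7, 2.73 upstream of Pecam1, 2.69 at Cd81, 2.29 in the Icam2 window, 2.26 at Itga6, 2 at Itgam and 1.96 at Itgb2. No replicate stands behind these folds, and the groups could not be tested for single libraries that stand apart. No group of 4 or more values was available in which a single sample could be set apart from the others.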

How the results depend on the processing

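Of 148 values under an alternative, 116 stayed within 1.5 times the reported value or, for shares of peaks, inside a binomial interval that treats peaks as independent. Why the rest moved was not tested. With gene bodies alone the direct list fell from 3.89 to 1.22 peaks per megabase. The CXD101 lost list fell from 1.3 to 0.406 and the MS-275 lost list from 0.778 to 0. The CXD101 gained list rose from 0.259 to 0.406, and the MS-275 gained list had 14.2 instead of 16.1. The 19 genes with an MS-275 gained peak moved by less than 1.5 times under each alternative (13 genes, against 9.99% of all genes, with gene bodies alone, and 21, against 28.3%, with 50 kb on either side), but the number of peaks was 35 instead of 62 with gene bodies alone, 95 with 50 kb on either side and 32 without Cd47 and Pecam1, which also lowered the density from 16.1 to 8.97 peaks per megabase. With RefSeq gene bodies it was 45, at 18 genes, and the direct list fell from 15 peaks to 7, as it also did without Cd47 and Pecam1. The direct list gave 3 peaks at 3 genes with gene bodies alone (2.90% of all genes), 9 peaks with 5 kb and 26 with 50 kb on either side. The 3 MS-275 lost peaks, at 3 genes, became 0 at 0 genes with gene bodies alone (1.49% of all genes), 1 at 1 gene at a q-value of 0.001 (2.50%), and lay at 5 genes with 50 kb (5.06%). The 5 CXD101 lost peaks, at 5 genes, became 1 at 1 gene with gene bodies alone (1.59%), 2 at 3 genes at a q-value of 0.001 (3.10%), and 8 at 8 genes with 50 kb (6.29%), and lay at 3 genes with 5 kb (2.23%). PU.1 matches fell from 3.23% to 0 and GC boxes from 14.5% to 6.45% within 50 bp of the summit. Over the whole MS-275 gained list they fell from 1.83% to 0.601% and from 10.6% to 5.33%. RefSeq windows and leaving out Cd47 and Pecam1 were chosen after the data were seen. No paired analysis was possible because the deposited peaks were called on pooled libraries, and for the same reason no library could be left out. At these depths a lost site near the background of 5.84 tags rests on few tags.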
